A study of Mus musculus with 42 samples.

Results

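Gli1-tdTomato+ stromal cells of the proximal colon were compared with the same cells of the distal colon in control (GWTT) mice, across all genes. The members are 4 of the 42 libraries of the series, 2 from each segment. They were defined by their labels, but earlier results of these data were known when they were chosen. The mice carried Gli1-CreERT2 and Rosa26-tdTomato, are labelled WT, and were 2 to 4 months old. All groups used here, the knockouts and the goblet cell mice included, carried Gli1-CreERT2 and received tamoxifen, 100 µl of 20 mg/ml on 5 consecutive days (by the labels under the skin, by the methods of the study into the peritoneum), and their cells were collected at day 30. tdTomato therefore marks cells in which the Gli1 promoter was active at the time of tamoxifen, and their descendants. The cells were sorted by flow cytometry and their RNA was sequenced. It is not stated whether a library came from 1 mouse or from a pool, or whether a proximal and a distal library came from the same mouse, so the p-values measure only the spread between these libraries. By the sex genes given below, proximal replicate 1 was male and both distal libraries female, so it shared no mouse with them.

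Mesenchymal cells below the gut epithelium keep a memory of their place along the gut. Hox genes, which lie in 4 clusters named Hoxa to Hoxd, encode transcription factors that are used in the order of the cluster along the body axis: low-numbered genes act in front and high-numbered genes behind. The same stromal cells secrete the Wnt ligands and R-spondins that keep the stem cells at the crypt base, the BMP ligands that favour differentiation above them, and the antagonists that separate both zones. Gli1 is a target gene and effector of Hedgehog signalling and marks much of this stroma.

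The 4 libraries held 16182827 to 16772902 reads. The proximal and the distal values come from separate tables that had been normalized apart, so each library was rescaled to a sum of 1000000, and every level below is in counts per 1000000 (CPM). Differences are proximal minus distal on the scale of log2(CPM + 1), which understates the difference of low genes, and are given ± the standard error. Genes with a mean of at least 1 CPM and a row in both tables, 14240 in all, were tested in limma. Genes count as called where the p adjusted by Benjamini-Hochberg was under 0.05 and the difference was at least 1 in size. Counts given at an unadjusted p take a p under 0.05 and keep the same limit on size. With 2 libraries against 2, an exact permutation test of a single gene cannot go below 0.333, so calls rest on the spread that limma shares across genes.

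The labels give the tissue as intestinal epithelium, whereas the marker genes were those of stroma. Per kilobase of exon, Col3a1 stood at 1536 and 1357 CPM in the proximal and at 2305 and 1850 in the distal libraries, and Pdgfra, the receptor that marks gut fibroblasts, at 100.0 and 92.3 against 123 and 114. The epithelial surface gene Epcam stood at 1.42 and 29.1 in the proximal and at 4.07 and 11.8 in the distal libraries on that scale. Ptprc (CD45, pan-leukocyte) was at 2.40 to 3.51 and Pecam1 (endothelium) at 1.30 to 2.66. Dcn and Vim, by contrast, were higher in the proximal libraries. On that scale Dcn stood at 1922 and 1848 against 994 and 1034, and Vim at 490 and 402 against 320 and 309. Of 12 stromal markers 0 were called by limma, and 0 passed at an unadjusted p with a 2-fold difference, so smaller differences are not covered.

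The libraries were not equally pure. The summed level of 17 epithelial markers was 35.7 and 1404 CPM in proximal replicates 1 and 2, and 173 and 473 in the distal ones, so the segments overlap. None of the 16 tested epithelial markers was called, and 0 passed at an unadjusted p with a 2-fold difference. Xist and 4 genes of the Y chromosome placed proximal replicate 1 with males and the other 3 libraries with females. Of the genes called, 9 were X-linked and 0 Y-linked. The number of X-linked genes tested is not given. The 4 Y genes summed to 293 CPM in proximal replicate 1 and 0 in proximal replicate 2, a spread that hardly allows a call. The part of sex in the differences was not tested. Distal replicate 1 also held acinar genes of the pancreas, such as Ctrb1 with 1050 reads against 2 in distal replicate 2, which were noticed after the values were seen. The 15 such genes had no row in the proximal table and so entered no comparison.

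**Figure D1:**
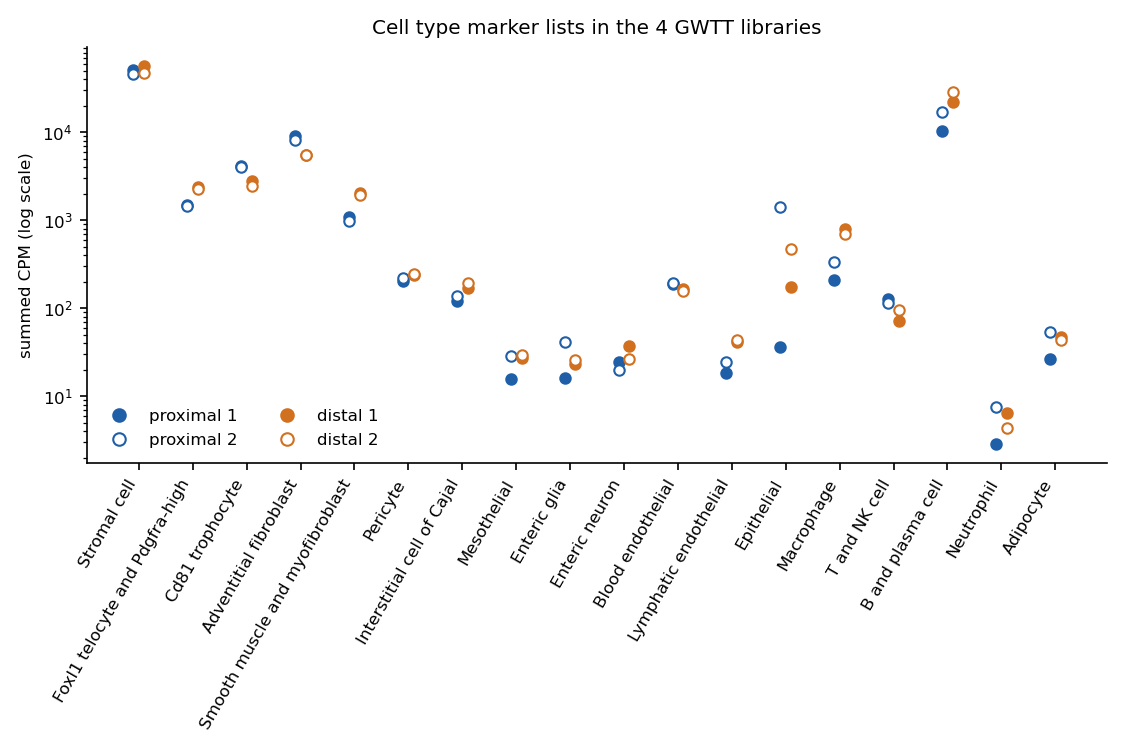
Summed CPM (log scale) of 18 lists of cell type markers in the 4 GWTT libraries, 1 point a library, proximal in blue and distal in orange. Stromal markers lie between 45923 and 56505 in all 4 libraries, epithelial markers range from 35.7 to 1404 within the proximal colon alone, and macrophage and contractile markers are higher in both distal libraries.

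Proximal and distal control stroma differed in 368 of 14240 genes, or 2.58% of those tested. 141 were higher in the proximal colon (0.99%) and 227 in the distal colon (1.59%), and the median difference of all genes was -0.02. All 368 had non-overlapping libraries, and 759 genes were at least 2-fold different at an unadjusted p under 0.05. Non-overlap of called genes, here and below, follows largely from the calling rule and is no separate support. The share of all genes tested that do not overlap is not given. Leaving out a library cost most calls: 0 genes were called without proximal replicate 1 (953 at an unadjusted p), 112 without proximal replicate 2, 10 without distal replicate 1 and 18 without distal replicate 2, and 0, 73, 10 and 17 of these were among the 368. In the same order, 351, 344, 356 and 349 of the 368 were still at least 2-fold different. None could reverse, since the segments do not overlap in any of the 368. The first of these removals leaves female libraries alone and the third takes out the library with pancreatic genes.

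Outside the Hox clusters, Ptgfr led the proximal genes. It encodes the receptor of prostaglandin F2α and stood at 77.4 and 87.7 in the proximal and at 3.52 and 8.82 in the distal libraries, a difference of 3.65 ± 0.36 (adjusted p = 0.0105). Angptl1, a secreted angiopoietin-like protein, stood at 66.2 and 62.8 against 3.58 and 5.60 (3.57 ± 0.21). Gsta3, a glutathione transferase, stood at 99.8 and 87.6 against 6.56 and 10.9 (3.32 ± 0.23). In each of these genes every proximal library lay several-fold above every distal library. Ackr4, a scavenger receptor for chemokines, stood at 615 and 364 against 53.3 and 61.7 (3.02 ± 0.25), although the proximal replicates differed from each other. The others were Brinp3 (3.19), Cnksr2 (3.05, a scaffold of Ras signalling), Vit (2.74, a matrix protein), Col6a6 (2.64, a collagen VI chain) and Itgbl1 (2.64).

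Isl1 led the genes of the distal colon. This LIM-homeobox factor, with its gene on chromosome 13 (mm10, chr13:116298281-116309689, minus strand), stood at 3.43 and 2.72 in the proximal and at 52.5 and 63.7 in the distal libraries, a difference of -3.86 ± 0.19 (adjusted p = 0.00298). Myo16, an unconventional myosin, stood at 0.612 and 0.927 against 21.7 and 17.1 (-3.52 ± 0.26). Stmn2, a microtubule regulator best known from neurons, stood at 2.02 and 2.35 against 27.8 and 19.4 (-2.93 ± 0.25). Levels in the proximal libraries were a few CPM or less for all 3. Tnfsf13b (BAFF), the survival cytokine of B cells, stood at 30.6 and 34.4 against 216 and 223 (-2.72 ± 0.10), and the replicates of each segment were nearly equal. Cd36, a fatty acid transporter, stood at 13.5 and 23.8 against 132 and 123 (-2.76 ± 0.25). Aldh3a1 (-2.75), Spock3 (-2.74), Sall1 (-2.59, a zinc finger factor) and Ano5 (-2.56) completed the list with the Wnt antagonists and the Hox gene described below.

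**Figure D2:**
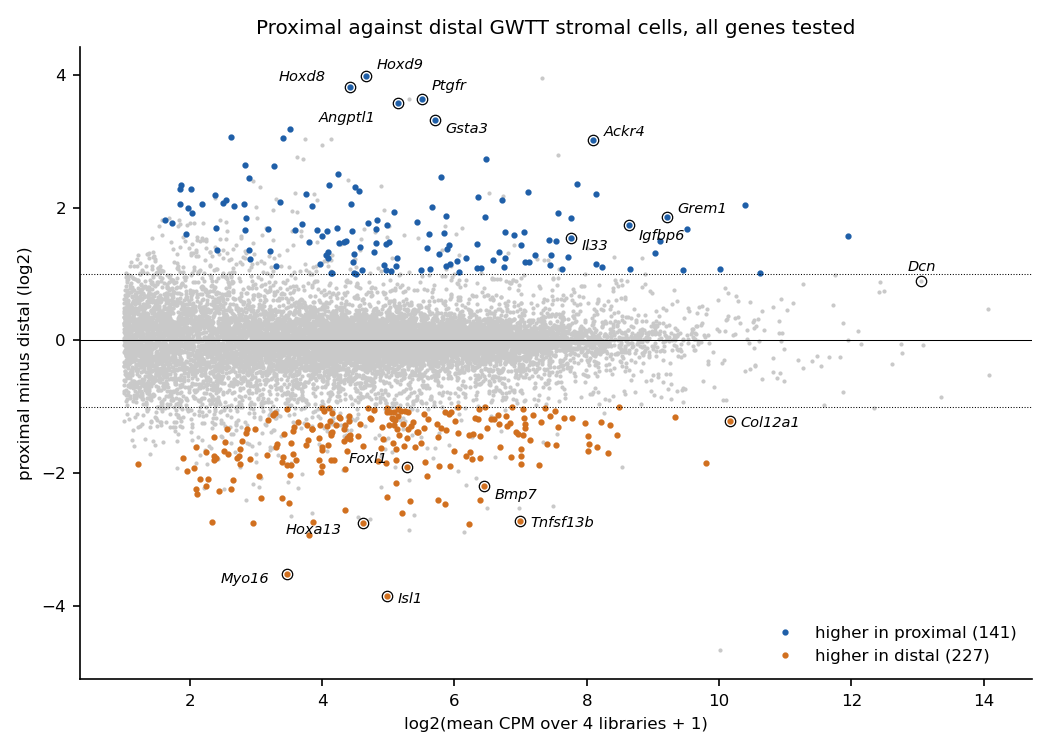
Proximal minus distal difference (log2) of each of the 14240 genes tested against its mean level over the 4 libraries, with the 141 genes called higher in the proximal colon in blue and the 227 called higher in the distal colon in orange. Hoxd9 at 3.99 and Isl1 at -3.86 lie at the ends of the called genes, and the stromal gene Dcn, also labelled, was not called.

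Most Hox genes that differed were higher in the proximal colon, and Hoxa13 was higher in the distal colon. Of 22 Hox genes tested, 9 were called higher in the proximal colon and 1 in the distal colon, and their median difference was 1.10, against -0.02 over all genes. Thus 45.5% of them were called, beside 2.58% of all genes tested. Hoxd9, in the middle of the Hoxd cluster (mm10, chr2:74697727-74700208, plus strand), had the largest difference of all called genes. It stood at 47.2 and 45.9 in the proximal and at 2.50 and 1.55 in the distal libraries (3.99 ± 0.22, adjusted p = 0.00298). Its neighbour Hoxd8 stood at 37.9 and 39.7 against 1.97 and 1.67 (3.82 ± 0.19), and Hoxd4 at 11.6 and 8.47 against 0.358 and 0.238 (3.07 ± 0.30). All 3 stood at 2.50 or less in the distal libraries, and the segments did not overlap. Farther along the same cluster the gap was smaller: Hoxd10 stood at 18.7 and 22.4 against 7.75 and 9.60 (1.16 ± 0.19), and Hoxd11 at 32.1 and 29.3 against 12.2 and 11.4 (1.31 ± 0.15).

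Hoxd13, the last gene of the cluster, was listed for the distal colon alone. It had 314 and 305 reads (18.7 and 18.2 CPM) in the distal libraries and no row in the proximal table, so it was not tested, and like the other Hox genes outside the test it is named after its values were seen. The tables leave out genes with few reads: a gene with no row in 1 table of a segment had at most 21 reads per control library in the other table of that segment. In the Hoxa cluster, Hoxa13 (mm10, chr6:52257694-52260880, minus strand) stood at 5.2 and 5.44 in the proximal and at 41.7 and 41.5 in the distal libraries (-2.75 ± 0.15, adjusted p = 0.00298). Hoxa11 stood at 17.0 and 18.5 against 29.6 and 33.8, a difference of -0.80 ± 0.14 that passed the test (adjusted p = 0.0436) and missed the 2-fold limit. Hoxa10 stood at 43.7 and 45.4 against 45 and 47.3 (-0.05 ± 0.10, adjusted p = 0.87), so its libraries overlapped. Hoxa9, the next gene towards the front, stood at 20.2 and 26.3 against 15.4 and 15.6 (0.54 ± 0.18, adjusted p = 0.19), which was not called.

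The other 4 called Hox genes lay in Hoxa, Hoxb and Hoxc. Hoxb4 stood at 19.3 and 19.8 in the proximal and at 5.90 and 6.74 in the distal libraries (1.49 ± 0.18), Hoxb6 at 8.07 and 12.7 against 2.03 and 1.37 (2.06 ± 0.31), and Hoxa3 at 6.36 and 6.86 against 1.97 in both (1.36 ± 0.25, adjusted p = 0.0496). Hoxc6 stood at 4.16 and 5.75 against 0.477 and 0 (2.28 ± 0.37). All 4 had non-overlapping segments. By position in the cluster, 17 of 17 tested genes of groups 2 to 9 were higher in the proximal colon, 7 of them called. Their median was 1.15, beside -0.02 over all genes tested. Of the 5 tested genes of groups 10 to 13, 2 were called higher in the proximal colon and 1 in the distal one, with a median of -0.05. A further 9 Hox genes, 6 of them from Hoxc, had a row in the proximal table alone, the highest being Hoxd3 at 4.71 and 2.90 and Hoxc10 at 3.24 and 4.14. Hoxb13 was below the filter, at 0 and 0.124 against 1.61 and 1.01. With genes that lack a row set to 0, 27 Hox genes could be tested and 11 were called higher in the proximal colon and 2 in the distal one.

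Some of these values may be affected by overlapping gene models. Those of Hoxa3 and Hoxa4 to Hoxa6, of Hoxc5 and Hoxc6 to Hoxc10, and of Hoxd3 and Hoxd4 overlap on the same strand. How reads in the overlaps were counted is not given, so the levels of Hoxa3, Hoxc6 and Hoxd4 are uncertain. Without proximal replicate 1 no Hox gene was called (14 higher in the proximal colon and 1 in the distal one at an unadjusted p), and 3, 2 and 2 were called without proximal replicate 2, distal replicate 1 and distal replicate 2.

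**Figure D3:**
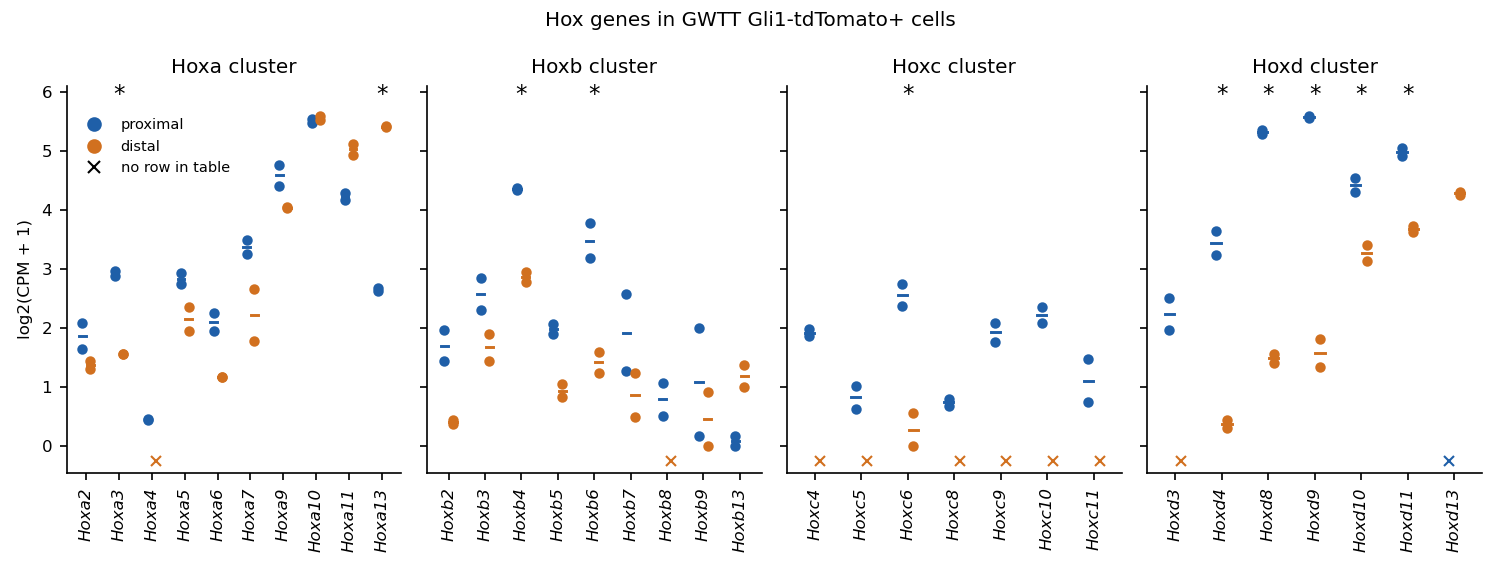
Level of Hox genes in the GWTT libraries as log2(CPM + 1), in the order of the 4 clusters, with proximal libraries in blue, distal in orange and a dash for the mean of 2 libraries. An asterisk marks a called gene and a cross a gene with no row in that segment's table; Hoxd8 and Hoxd9 are high in the proximal colon alone, and Hoxa13 and Hoxd13 are high in the distal colon.

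The start regions of the 2 genes with the largest proximal difference and of the 2 group 13 genes of the distal colon are shown, as RefSeq gives them on GRCm38.p6, from 250 bases before to 50 after the start of the gene. Hoxd9 lies at chr2:74697513-74697812 (plus strand, GC 68.3%), Hoxd8 at chr2:74704365-74704664 (plus, GC 46.7%), Hoxa13 at chr6:52260831-52261130 (minus, GC 81.0%) and Hoxd13 at chr2:74667975-74668274 (plus, GC 74.3%). Capitals mark matches to TTTAT on either strand, the core of sites bound by posterior Hox and Cdx proteins.
Hoxd9: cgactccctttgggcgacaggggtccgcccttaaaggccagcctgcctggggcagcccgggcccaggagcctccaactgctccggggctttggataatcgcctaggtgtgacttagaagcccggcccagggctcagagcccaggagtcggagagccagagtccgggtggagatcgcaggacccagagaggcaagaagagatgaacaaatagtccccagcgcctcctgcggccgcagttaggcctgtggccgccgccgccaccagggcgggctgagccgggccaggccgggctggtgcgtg
Hoxd8: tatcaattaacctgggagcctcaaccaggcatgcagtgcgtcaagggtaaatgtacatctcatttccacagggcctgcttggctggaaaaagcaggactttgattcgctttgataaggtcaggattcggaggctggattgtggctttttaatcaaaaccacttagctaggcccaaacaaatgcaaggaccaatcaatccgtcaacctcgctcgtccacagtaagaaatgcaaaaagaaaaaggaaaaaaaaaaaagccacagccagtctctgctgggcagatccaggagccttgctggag
Hoxa13: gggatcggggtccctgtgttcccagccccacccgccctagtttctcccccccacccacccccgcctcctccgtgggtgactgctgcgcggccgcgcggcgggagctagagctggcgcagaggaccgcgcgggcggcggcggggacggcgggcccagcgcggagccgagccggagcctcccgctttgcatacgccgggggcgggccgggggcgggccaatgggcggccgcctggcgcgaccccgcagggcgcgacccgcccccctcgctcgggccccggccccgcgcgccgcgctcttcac
Hoxd13: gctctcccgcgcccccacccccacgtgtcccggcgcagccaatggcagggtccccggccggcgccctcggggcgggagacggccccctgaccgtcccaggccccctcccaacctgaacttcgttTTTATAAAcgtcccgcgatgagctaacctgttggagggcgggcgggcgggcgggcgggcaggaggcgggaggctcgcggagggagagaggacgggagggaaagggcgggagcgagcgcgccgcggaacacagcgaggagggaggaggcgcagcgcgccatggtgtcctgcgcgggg

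TTTAT was found on 1 or both strands in 40.9% of 27025 RefSeq start regions and in 8 of the 22 Hox genes with such a region (36.4%). These 22 are not the 22 tested Hox genes, since they include Hoxd13. Of the 4 regions shown, Hoxd13 alone held it, as 2 overlapping matches on opposite strands. TAATTA, a palindrome bound by many homeodomains, was present in 5.33% of all regions, in 1 of the same 22 Hox regions (4.55%) and in none of the 4 shown.

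Other patterning factors split between both ends. Of 46 tested homeobox, forkhead and T-box factors, 4 were called higher in the proximal colon and 8 in the distal one (median -0.11, against -0.02 over all genes). Together 26.1% were called, beside 2.58% of all genes tested. Among the distal ones, Tbx3 stood at 7.22 and 11.8 in the proximal and at 52.9 and 50.1 in the distal libraries (-2.36 ± 0.23), and Tbx4, the T-box gene of the hindlimb and lung mesenchyme, at 2.02 and 0.803 against 10.8 and 7.45 (-2.10 ± 0.36). Sall1 stood at 7.46 and 11.8 against 61.6 and 62.2 (-2.59 ± 0.22). On the proximal side, Zfhx4 stood at 79.2 and 81.3 against 19.1 and 19.2 (2.01 ± 0.10, adjusted p = 0.00298), and Ebf1 at 124 and 150 against 32.4 and 42.0 (1.86 ± 0.16). Prrx1, a homeobox factor of limb and skin mesenchyme, stood at 37.6 and 40.2 against 9.54 and 12.0 (1.76 ± 0.16). Meis1, a cofactor of Hox proteins, stood at 105 and 113 against 50.7 and 50.9 (1.09 ± 0.09). The segments did not overlap in any of them. Without proximal replicate 1 and without distal replicate 1 none of the 46 was called (17 and 13 at an unadjusted p), 7 were without proximal replicate 2 and 1 without distal replicate 2.

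The BMP ligands that differed were mostly higher in the distal stroma, and the BMP antagonists that differed in the proximal stroma. Of 11 ligands tested, 4 were called higher in the distal and 1 in the proximal colon (median -0.87), and of 14 antagonists 3 were called, all higher in the proximal colon (median 0.12). Calls thus took in 45.5% of ligands and 21.4% of antagonists, beside 2.58% of all genes tested. Bmp7 stood at 32.4 and 28.1 in the proximal and at 142 and 143 in the distal libraries (-2.20 ± 0.11, adjusted p = 0.00298). Bmp5 stood at 86.2 and 83.4 against 258 and 246 (-1.56 ± 0.09), and Bmp6 at 107 and 176 against 394 and 354 (-1.44 ± 0.23). Bmp2 completed the distal set at 94.3 and 76.9 against 176 and 173 (-1.03 ± 0.12). Gdf6 was the exception, at 39.0 and 56.5 against 13.8 and 12.8 (1.75 ± 0.20).

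Grem1, the antagonist secreted below the crypts, led the opposing genes. It stood at 919 and 939 in the proximal and at 284 and 231 in the distal libraries (1.86 ± 0.12, adjusted p = 0.00494). Fst, which binds activins and some BMPs, stood at 15.2 and 10.6 against 3.40 and 3.1 (1.69 ± 0.26). On the receiving side, 3 of 19 receptors, Smads and target genes were called (15.8%, beside 2.58% of all genes tested), all higher in the distal colon (median -0.08). Smad6, an inhibitory Smad induced by BMP, stood at 24.2 and 24.5 against 56.4 and 48.5 (-1.07 ± 0.13). Smad9 stood at 15.1 and 15.5 against 34.5 and 37.4 (-1.18 ± 0.13), and the receptor gene Bmpr1b was low throughout, at 0.550 and 0.803 against 3.94 and 5.54. The genes that the study deletes were not called: Bmpr1a (Alk3) stood at 166 and 185 against 180 and 189 (-0.07 ± 0.09, adjusted p = 0.78) and Smad4 at 94.9 and 101 against 109 and 105 (-0.12 ± 0.09, adjusted p = 0.55). Among the 11 ligands, 0 were called without proximal replicate 1 and without distal replicate 1, 3 without proximal replicate 2 and 1 without distal replicate 2, whereas 5 or 6 passed at an unadjusted p each time. None of the 3 antagonist and 3 receiving-side calls was kept in any of the 4 removals, with 3 to 5 genes of each list passing at an unadjusted p.

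Wnt ligands leaned the same way as the BMP ligands. Of 10 tested, 3 were called (30.0%, beside 2.58% of all genes tested), all higher in the distal colon, and the median was -0.93. Wnt5a, a ligand of non-canonical signalling, stood at 82.6 and 106 in the proximal and at 221 in both distal libraries (-1.23 ± 0.13), Wnt4 at 47.4 and 87.4 against 232 and 248 (-1.88 ± 0.27), and Wnt2 at 2.51 and 4.70 against 16.9 and 17.8 (-2.03 ± 0.29). Their secreted modulators went both ways: of 10 tested, 2 were called higher in the proximal colon and 3 in the distal one (50.0% called, median 0.17). Rspo3, which amplifies canonical Wnt signals at the crypt base, stood at 23.6 and 25.4 against 6.98 and 7.27 (1.65 ± 0.16), and Dkk2 at 9.85 and 7.11 against 0.894 and 1.49 (2.11 ± 0.31). The antagonists Wif1, at 2.32 and 3.21 against 27.7 and 20.8 (-2.74 ± 0.25), Sfrp2, at 14.7 and 18.6 against 80.6 and 114 (-2.46 ± 0.20), and Frzb (-1.27 ± 0.22) were higher in the distal colon. Of the ligands 2 were called without proximal replicate 2 and 0 without any other library (4 or more passed at an unadjusted p), and of the modulators 0 in each removal, with 5 to 8 at an unadjusted p.

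**Figure D4:**
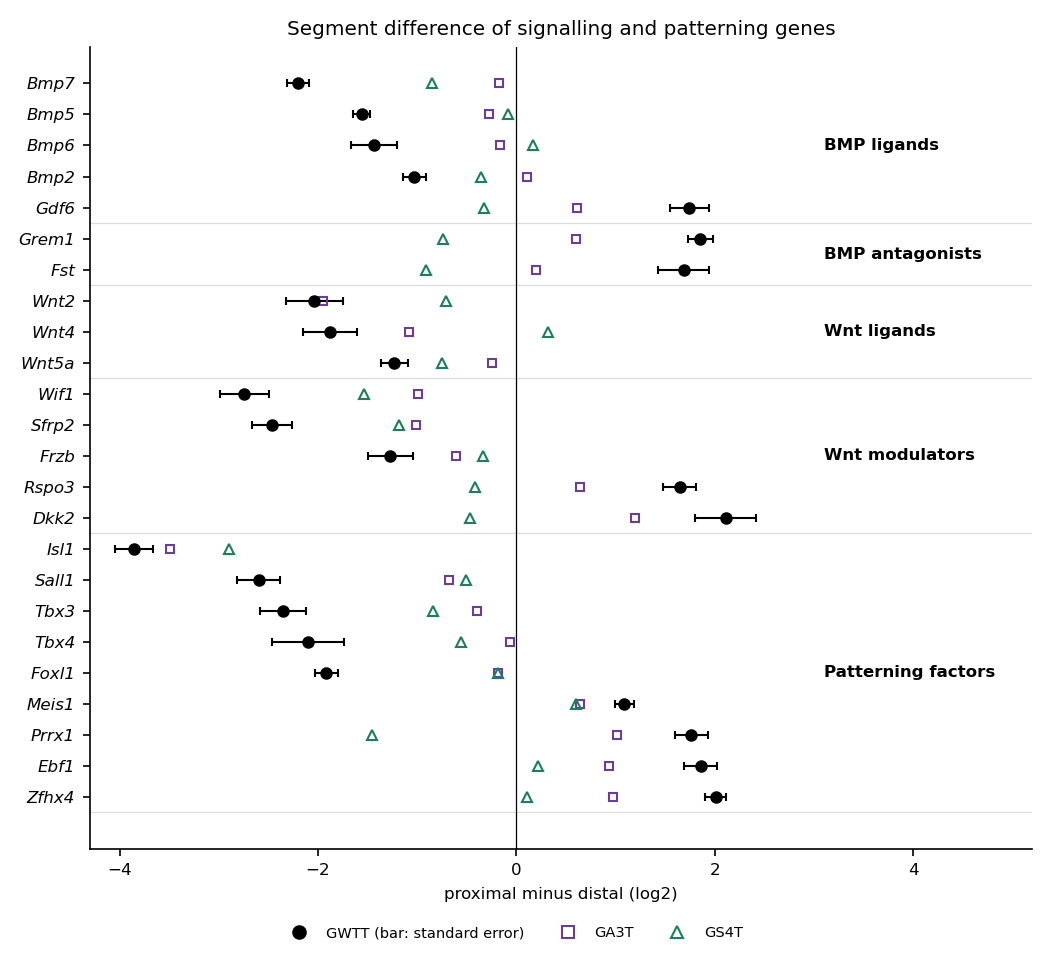
Proximal minus distal difference (log2) of BMP, Wnt and patterning genes, each called in GWTT cells (black, bar: standard error over 2 against 2 libraries), with the same difference in GA3T (squares) and GS4T (triangles) cells. Bmp7 lies at -2.20 and Grem1 at 1.86 in GWTT cells, and most of the open symbols lie closer to 0 than the black ones, Wnt2 in GA3T cells and Isl1 in both knockouts less so.

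In the Hedgehog pathway 1 of 15 genes was called (6.67%, beside 2.58% of all genes tested, median 0.01). This was Foxl1, the forkhead factor of subepithelial telocytes, which stood at 14.7 and 16.1 in the proximal and at 60.5 and 60.9 in the distal libraries (-1.91 ± 0.12, adjusted p = 0.00398). Gli1 itself was not called. It stood at 38.0 and 96.3 against 99.6 and 83.3 (-0.58 ± 0.41, adjusted p = 0.54), so the proximal replicates differed more from each other than the segments did. Pdgfra stood at 1002 and 925 against 1232 and 1140 (-0.30 ± 0.12, adjusted p = 0.26).

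Among further growth factor and guidance genes most were not called, and those called were mostly higher in the distal stroma. Calls took in 15.8% of FGF, HGF and IGF genes, 11.1% of EGF family ligands and 9.09% of Notch genes. They took in 7.69% of retinoic acid genes and 10.3% of axon guidance genes, beside 2.58% of all genes tested. In the FGF, HGF and IGF group, 1 of 19 was called higher in the proximal colon and 2 in the distal one (median -0.12). Hgf, a mitogen of epithelium, stood at 62.8 and 70.4 against 160 and 191 (-1.38 ± 0.12), Fgf12 at 3.55 and 1.48 against 14.7 and 18.3, and Igfbp6, which binds IGF2, at 666 and 553 against 183 and 181 (1.73 ± 0.12). Nrg1 was the 1 gene called of 9 EGF family ligands (median -0.49), at 24 and 17.8 against 43.2 and 46.4 (-1.08 ± 0.17). Dll1, a Notch ligand, was the 1 called of 11 Notch genes (median -0.47), at 9.36 and 14.2 against 60.2 and 73.0 (-2.43 ± 0.22). Rdh10, which makes retinal from retinol, was the 1 called of 13 genes of retinoic acid metabolism (median -0.22), at 52.5 and 75.7 against 153 and 160. The axon guidance family had 5 of 58 genes called higher in the distal and 1 in the proximal colon (median -0.33). Among them, Efnb2 stood at 24.3 and 25.8 against 99.9 and 91.0 (-1.89 ± 0.11), Unc5b, a netrin receptor, at 20.1 and 24.2 against 84.7 and 84.9 (-1.90 ± 0.13), and Efna5 at 35.7 and 46.9 against 20.8 and 15.6 (1.14 ± 0.20). Unc5c (-2.37) and Epha7 (-1.59) were also called.

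Most matrix genes were not called, although the share called, 8.33% of collagens, of laminins and integrins and of hyaluronan genes and 5.56% of matrix proteases and inhibitors, was above the 2.58% of all genes tested. Of 36 collagens, 1 was called higher in the proximal colon and 2 in the distal one (median -0.21), of 36 laminins and integrins 1 and 2 (median -0.18), of 36 matrix proteases and inhibitors 1 and 1 (median -0.21), and of 12 hyaluronan genes 0 and 1 (median -0.36). Lama5, a laminin chain of basement membranes, stood at 23.5 and 27.8 in the proximal and at 147 and 132 in the distal libraries (-2.40 ± 0.12, adjusted p = 0.00298). Has2, a hyaluronan synthase, stood at 17.9 and 17.1 against 65.6 and 86.6 (-2.05 ± 0.16), and Col12a1, a fibril-associated collagen, at 696 and 695 against 1613 and 1608 (-1.21 ± 0.10). In each of the 3 both distal libraries were above both proximal ones. Col24a1 (-1.61), Itga8 (-1.47) and Mmp10 (-1.71) were higher in the distal colon, and Mmp16 (1.07), with Col6a6 and Itgbl1, in the proximal colon.

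Immune mediators were called in both directions. The share called was 15% of interleukins, 2.94% of interleukin receptors, 13% of chemokine ligands, 14.3% of complement genes and 25% of prostaglandin genes, beside 2.58% of all genes tested. Il33, an alarmin held in the nucleus of fibroblasts, stood at 341 and 305 in the proximal and at 99.9 and 120 in the distal libraries (1.55 ± 0.12, adjusted p = 0.00716). It was the 1 of 20 interleukins called higher in the proximal colon, and Il34 (-1.49) and Il1b (-1.17) were called higher in the distal colon (median -0.03). Of 34 interleukin receptors 1 was called, Il31ra at 6.91 and 4.57 against 0.119 and 0.656 (median -0.01). Chemokine ligands had 1 of 23 called higher in the proximal colon, Ccl5 (1.70), and 2 in the distal colon, Cxcl14 at 32.7 and 52.2 against 100.4 and 123 (-1.41 ± 0.23) and Cxcl2 (-1.16), with a median of -0.27. In complement 3 of 21 were called, C1qa, C1qb and C5ar1, all higher in the distal colon (median 0.12). For prostaglandins, 2 of 16 genes were called in each direction (median -0.52). Hpgd, which breaks prostaglandins down, stood at 179 and 149 against 55.9 and 48.6 (1.63 ± 0.13) beside the receptor Ptgfr, and the synthases Ptges, at 52.6 and 91.2 against 199 and 179 (-1.43 ± 0.25), and Tbxas1 (-1.84) were higher in the distal colon.

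Markers of stromal subsets differed too, and in bulk libraries a smaller number of cells of a type and less RNA per cell cannot be told apart. Of 11 markers of Foxl1 telocytes and Pdgfra-high cells, 6 were called, all higher in the distal colon (median -1.08): Bmp7, Foxl1, Bmp5, Sox6, Wnt5a and Nrg1. Sox6, the one not yet described, stood at 23.4 and 22.4 in the proximal and at 60.9 and 62.2 in the distal libraries (-1.39 ± 0.11). Of 9 markers of Cd81+ trophocytes, the Grem1-expressing cells below the crypts, 3 were called higher in the proximal colon (Ackr4, Grem1 and Rspo3) and 1, Wnt2, in the distal colon (median 0.51). The adventitial list had 1 of 11 called, Dpp4 at 21.6 and 34.0 against 4.59 and 4.53 (2.34 ± 0.25, list median 0.57). Several of these genes were already counted in the pathway lists above. Calls took in 54.5% of the telocyte, 44.4% of the trophocyte and 9.09% of the adventitial list, beside 2.58% of all genes tested. In the telocyte list, 0 genes were called without proximal replicate 1 and without distal replicate 1, 5 without proximal replicate 2 and 1 without distal replicate 2, with 6 or 7 at an unadjusted p, and in the trophocyte list 1 without proximal replicate 2 and 0 otherwise, with 4 at an unadjusted p.

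Contractile genes and macrophage genes were higher in the distal libraries. Calls took in 42.9% of the contractile and 33.3% of the macrophage list, beside 2.58% of all genes tested. Of 14 smooth muscle and myofibroblast genes, 6 were called, all higher in the distal colon (median -0.96), and their summed level was 1078 and 970 in the proximal and 2042 and 1930 in the distal libraries. Myh11, smooth muscle myosin, stood at 189 and 116 against 489 and 475 (-1.69 ± 0.22), Acta2 at 192 and 162 against 425 and 406 (-1.23 ± 0.11), with Lmod1 (-1.67) and Actg2 (-1.28) alongside. Of 12 macrophage markers, 4 were called, all higher in the distal colon (median -1.32), with summed levels of 207 and 331 against 791 and 695. Csf1r, the receptor of the macrophage growth factor, stood at 25.7 and 46.0 against 113 in both distal libraries (-1.68 ± 0.26), and Cd14 at 10.9 and 14.4 against 50.1 and 45.5 (-1.85 ± 0.17). C1qa (-1.31) and C1qb (-1.33), counted above with complement, are macrophage genes as well. The part of contractile and of macrophage cells in the other differences was not tested. The contractile calls fell to 1 without proximal replicate 2 and to 0 without any other library (4 to 8 at an unadjusted p), and the macrophage calls to 3 and 0 (6 to 10).

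The remaining marker lists held 0 to 3 calls each. The share called was 30.0% for blood endothelium, 20.0% for enteric neurons, 12.5% for pericytes, 9.09% for T and NK cells and 3.33% for immediate early and heat shock genes, beside 2.58% of all genes tested. Blood endothelium had 1 of 10 called higher in the proximal colon, Tek at 146 and 157 against 63.1 in both (1.25 ± 0.09), and 2 in the distal colon, Esam (-1.86) and Plvap (-1.43), with a median of -1.02. Pericytes had 1 of 8 called, Mcam (-1.28, list median -0.15), T and NK cells 1 of 11, Cd8a at 3.55 and 4.76 against 0.537 and 0.477 (list median 0.96), enteric neurons 1 of 5, Stmn2 (list median 0.78), and immediate early and heat shock genes 1 of 30, Egr2 at 31.6 and 38.9 against 80.1 and 111 (list median 0.34). In the enteric neuron list, among others, Elavl3, Elavl4, Phox2a, Snap25, Chat and Vip were at 0 or had no row. B and plasma cell genes, which include abundant immunoglobulin genes, summed to 10417 and 16853 in the proximal and to 21806 and 28432 in the distal libraries, with 0 of 9 called and 3 at an unadjusted p (median -0.95).

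No gene was called by limma among 10 MHC class II genes (median -0.53, 0 at an unadjusted p with a 2-fold difference), 27 interferon-stimulated genes (median 0.30, 1), 38 S and G2/M phase genes (median -0.31, 1), 5 markers of interstitial cells of Cajal (median -0.11, 0), 8 of mesothelium (median -0.66, 1), 5 of enteric glia (median 0.03, 0), 5 of lymphatic endothelium (median -0.80, 1), 2 of neutrophils (median -0.08, 0) and 3 of adipocytes (median -0.41, 1). Examples of members with a mean of at least 5 CPM are Ifit1 at 14.1 and 18.0 in the proximal and 5.72 and 9.00 in the distal libraries (adjusted p = 0.11) and Bub1b at 8.26 and 8.34 against 14.5 and 18.3 (adjusted p = 0.073). Of 9 mast cell markers all were at 0 or had no row.

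The segment difference was then read in the stroma of the knockouts, whose libraries share none with the controls. In GA3T mice tamoxifen deletes Alk3 (Bmpr1a in the tables) in Gli1+ cells, and in GS4T mice Smad4, with the same tdTomato sort and 2 libraries per segment. By Xist and the Y genes, replicate 1 was male and replicate 2 female in both GA3T segments, unlike the controls. The sex of the GS4T libraries is not given. Bmpr1a stood at 105 to 125 CPM in the 4 GA3T libraries against 166 to 189 in the controls, and Smad4 at 41.5 to 70.1 in the 4 GS4T libraries against 94.9 to 109. Gli1 was at 1.98 in GA3T proximal replicate 2 and at 1.4 in GS4T proximal replicate 2, and at 44.5 to 91.0 in the other 6 knockout libraries. Of the 368 called genes, 363 had a value in GA3T cells, and 320 of them (88.2%) differed in the direction of the controls, against 55.9% of all 13851 genes with a value in both. For GS4T the count was 245 of 346 (70.8%), against 56.4% of all 13626. The differences were smaller: genes higher in the proximal control had a median of 1.58 in the controls and 0.65 in GA3T cells, and 1.5 and 0.38 for those with a value in GS4T cells, and genes higher in the distal control had medians of -1.44 and -0.37, and of -1.44 and -0.27. The genes were chosen by their size in the controls, so the control medians are no independent estimate. Across all genes Pearson's r between the control and knockout difference was 0.40 for GA3T and 0.28 for GS4T, as a description over genes, which are not independent.

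Few genes passed the test within a knockout. limma called 0 of 14312 genes (0.0%) between the segments of GA3T cells, with 174 at an unadjusted p, and 13 of 14258 (0.0912%) in GS4T cells, 8 higher in the proximal colon (0.0561%) and 5 in the distal one (0.0351%). The latter count was 0 without GS4T proximal replicate 1 and without proximal replicate 2, 41 without distal replicate 1 and 33 without distal replicate 2. Among Hox genes, Hoxd9 stood at a difference of 4.53 in GA3T and 4.69 in GS4T cells against 3.99 in the controls, and Hoxd8 at 4.27 and 4.44 against 3.82. Hoxd4 was also larger in both, at 3.33 and 3.66 against 3.07. Hoxb4 (0.44 and 0.59 against 1.49), Hoxb6 (1.79 and 1.85 against 2.06) and Hoxa3 (1.24 and 0.69 against 1.36) were smaller in both. Hoxa13 was at -1.44 and -2.89 against -2.75, and Hoxc6 at 2.15 in GA3T cells against 2.28. Isl1 was at -3.49 and -2.90 against -3.86. Bmp7 was at -0.17 and -0.85 against -2.20. Its proximal level was 259 and 362 in GA3T and 241 and 146 in GS4T cells beside 32.4 and 28.1 in the controls. By these differences its distal level in the knockouts was above that of the controls too, though by less. Foxl1 was at -0.18 in both knockouts against -1.91, with proximal levels of 49.1 and 58.3 and of 55.7 and 44.8. The test of the difference between GA3T and GWTT gave an adjusted p of 0.17 for both genes, and that between GS4T and GWTT 0.14 for Bmp7 and 0.070 for Foxl1.

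The difference between segments itself was tested as an interaction, which uses the control libraries again. Against GA3T, limma called 0 of 14367 genes (0.0%), with 386 at an unadjusted p. Against GS4T it called 43 of 14388 (0.299%), 31 (0.215%) with a more positive and 12 (0.0834%) with a more negative proximal minus distal difference in the knockout. This count rests on single libraries: it was 0 without GWTT proximal replicate 1, GWTT distal replicate 1, GWTT distal replicate 2 or GS4T proximal replicate 1, 2 without GS4T proximal replicate 2, 9 without GS4T distal replicate 2, 36 without GS4T distal replicate 1 and 59 without GWTT proximal replicate 2. 33 of the 43 were among the genes called in the controls.

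Grem1 and Ptgfr lost their proximal excess in GS4T cells. Grem1 stood at 464 and 836 in the proximal and at 1051 and 1029 in the distal GS4T libraries (interaction -2.59 ± 0.36, adjusted p = 0.0473), and Ptgfr at 4.76 and 7.0 against 6.75 and 8.23 (-3.96 ± 0.50, adjusted p = 0.0457). Cd36 and Has2 lost their distal excess, in different ways. Cd36 was low in all 4 GS4T libraries, at 12.6 to 14.9 (2.96 ± 0.33), whereas Has2 was high in all 4, at 54.8 to 77.3 (2.28 ± 0.24). Hoxd10 and Hoxd11 had a larger difference than in the controls. Hoxd10 stood at 37.6 and 36.3 in the proximal and at 1.03 and 2.18 in the distal GS4T libraries (2.74 ± 0.35, adjusted p = 0.0457), and Hoxd11 at 43.4 in both against 2.05 and 2.39 (2.48 ± 0.22, adjusted p = 0.0379). In GA3T cells the difference was also above that of the controls, at 2.58 for Hoxd10 and 2.37 for Hoxd11 beside 1.16 and 1.31, but the interaction did not pass (adjusted p = 0.64 and 0.59). Hoxd13 stood at 2.11 and 2.95 in distal GS4T and at 9.08 and 6.01 in distal GA3T libraries, beside 18.7 and 18.2 in the controls, and was not tested between segments.

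**Figure D5:**
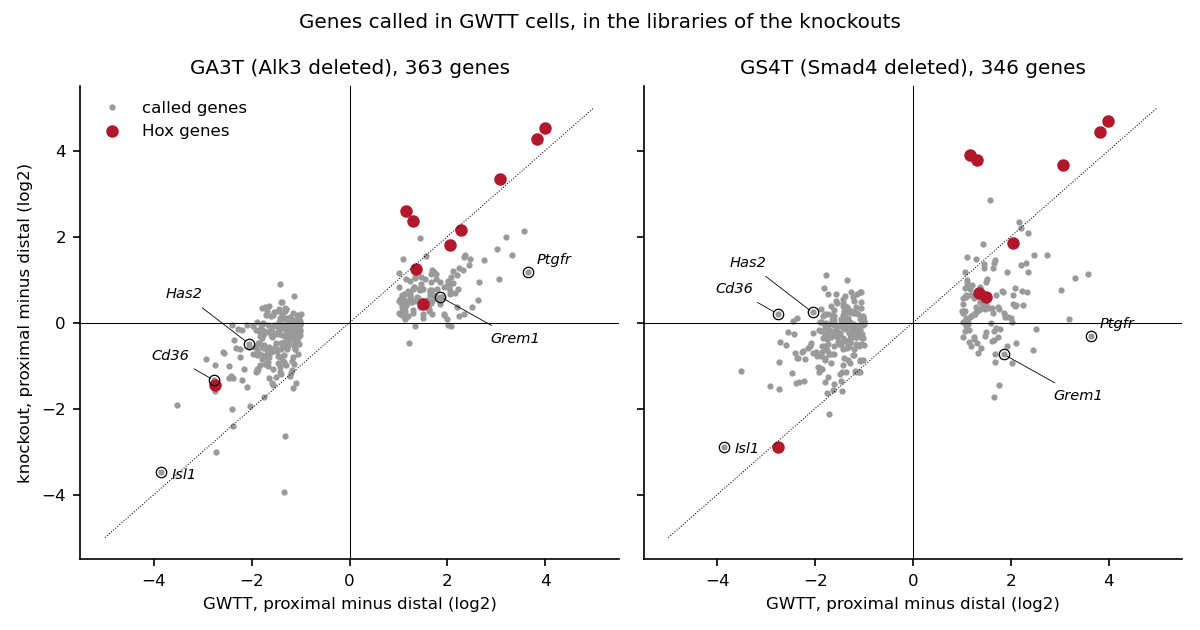
Proximal minus distal difference (log2) in GWTT cells against the same difference in GA3T (363 genes) and GS4T cells (346 genes), for genes called in GWTT cells, with Hox genes in red and the line of equality dotted. 76 of the 363 genes and 56 of the 346 had the direction of the controls and a size of at least 1 in the knockout. Hoxd8, Hoxd9, Hoxd10 and Hoxd11 lie above the line in both.

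Goblet cells of the same colon segments, sorted as Muc2-mCherry+ from control GWTM2 mice with 2 libraries per segment, were compared with the stroma as another cell type of the same place. The interaction against GWTT stroma was called for 139 of 12426 genes (1.12%), 93 of them (0.748%) more positive and 46 (0.37%) more negative in goblet cells. Hoxb6 stood at 95.5 and 107 in the proximal and at 2.04 and 3.25 in the distal goblet libraries (interaction 2.77, adjusted p = 0.0348). Hoxb3 (2.42), Hoxb4 (1.93) and Hoxb5 (2.46) also had a larger proximal excess in goblet cells than in stroma. Hoxa9 (-1.96), at 26.8 and 17.2 against 64.5 and 53.9, and Hoxa3 (-1.72), at 21.6 and 19.6 against 26.1 and 27.6, were more negative. Hoxa13 was higher in the distal colon in both cell types, at 12.5 and 7.24 against 39.9 and 48.7 in goblet cells (interaction 0.65, adjusted p = 0.45). Hoxb13 stood at 1.97 and 0.441 against 181 and 192 in goblet cells, where stroma had at most 1.61, and Hoxd9, the leading gene of the stroma, stood at 0.252 and 0 in the proximal goblet libraries. The count of 139 was 0 without GWTT distal replicate 1 or 2, 51 without GWTT proximal replicate 1, 33 and 6 without GWTM2 proximal replicate 1 and 2, and 220 without GWTM2 distal replicate 1.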

How the data were processed

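Gli1-tdTomato+ cells were isolated by flow cytometry and libraries were made with the SMARTER mRNA-Seq kit. The authors checked reads with FastQC, mapped them uniquely to mm10 with STAR 2.5.3 and normalized gene counts with DESeq2 1.28.1. The counting program, annotation and strand setting are not given in the sources used here. The deposited values are a signal per gene, counts divided by 1 size factor per library within each table, and 100% of the control values were whole multiples of a step (within 0.1), so whole reads were recovered. Each of 6 tables was normalized apart, so columns were divided by their sum over all rows and rescaled to 1000000 (CPM). 4 columns of these tables, of GA3M2 goblet cells, were not used. 32 symbols that stand for several genes or held unlike values for the same library were dropped. log2(CPM + 1) was fitted with a trend in limma 3.58.1 (R 4.3.3), without a replicate block, over the libraries of each comparison, and every adjusted p is limma's unless another tool is named. Replicates of the controls differed by more than sampling noise (chi-square per degree of freedom 33.2 proximal, 18.1 distal). Gene positions are those of GENCODE M21 (98.7% of symbols matched once). On simulated libraries of the control comparison (14024 genes), 91.8% of 110 genes with a true absolute log2 of 2 and 98.9% of 90 with 3 were called. 22 unchanged genes were called beside them. The changed genes were drawn from those with a mean of at least 5 CPM. Lower genes and differences nearer the 2-fold limit were therefore not covered. The choices varied were the pseudocount (0.1 and 10), the filter (none, or a mean of at least 10 CPM), TMM, edgeR 4.0.16 and DESeq2 1.42.0 on recovered reads, a fit over 12 tdTomato libraries, the control columns of the GS4T tables, the replicate block, and each library left out. The libraries and the 45 gene lists were chosen with earlier results of these data known. Named genes are all Hox genes tested, the 12 largest differences in each direction among called genes with non-overlapping libraries (gene models without a proper name, Xist and Y-linked genes left out), at most 4 called members per direction of each list, or, where a list has none, at most 2 values of mean at least 5, and Gli1, Pdgfra, Smad4 and Bmpr1a. Results of some genes are not reported here. Intervals are not given, and precision is that of 2 libraries.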

Additional observations from a re-analysis of the deposited data

Results flagged for a closer look

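These genes had a segment difference that differed between cell groups in the test of the interaction, given as the log2 difference of the segment differences. In GS4T against GWTT cells it was negative for Brinp3 (-3.11), Grem1 (-2.59) and Ptgfr (-3.96), which were higher in the proximal control colon, and positive for Cd36 (2.96), Dll1 (2.16), Efnb2 (1.90), Has2 (2.28) and Tnfsf13b (2.28), which were higher in the distal control colon. Hoxd10 (2.74) and Hoxd11 (2.48), higher in the proximal control colon, were positive as well. In goblet cells against GWTT stroma it was negative for Hoxa3 (-1.72) and Hoxa9 (-1.96) and positive for Hoxb3 (2.42), Hoxb4 (1.93), Hoxb5 (2.46) and Hoxb6 (2.77). All of them use the same 4 control libraries, and the counts they belong to fell to 0 without either distal control library.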

How the results depend on the processing

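Of the 368 control genes called, 0 changed direction under any alternative. With a library left out this was fixed in advance, since none of the 368 had overlapping segments. The count was 351 with a pseudocount of 0.1, 184 with 10, 358 without a filter, 299 at a mean of at least 10 CPM, 351 with TMM, 301 with edgeR, 635 with DESeq2, 372 with the control columns of the GS4T tables, 215 in the fit over 12 libraries, 759 at an unadjusted p, and 0 to 112 with a library left out. The interaction with GS4T (43) gave 16 with a pseudocount of 0.1, 730 at an unadjusted p and 0 to 59 with a library left out, that with GA3T (0) gave 386 at an unadjusted p, and that with goblet cells (139) gave 54 with a pseudocount of 0.1, 91 at a mean of at least 10, 81 with edgeR, 486 with DESeq2, 728 at an unadjusted p and 0 to 220 with a library left out. Within GA3T cells (0) 174 passed at an unadjusted p, and within GS4T cells (13) 4 were called with a pseudocount of 0.1, 6 at a mean of at least 10, 346 at an unadjusted p and 0 to 41 with a library left out. The cause was not tested.

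Replicate numbers are shared by the segments, but no source says that they pair mice. By the sex genes, control replicate 1 was male in the proximal and female in the distal colon, so that number pairs no mouse in the controls. Same-numbered control libraries deviated with r = 0.21 over 14240 genes and 2 pairs only. With the replicate number as a block, 488 control genes were called instead of 368 (364 shared), 24 instead of 43 for the interaction with GS4T, 2 instead of 0 within GA3T cells, 67 instead of 13 within GS4T cells and 105 instead of 139 for goblet cells.

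Some genes that were not called changed sign. With a proximal replicate left out, the log2 difference of Bmpr1a ran from -0.14 to 0.0054, and those of other genes ran from -1.36 to 0.97 (Erbb3), -6.23 to 0.45 (Fcgbp), -1.24 to 0.079 (Gli1), -0.78 to 5.13 (Car1) and -0.14 to 0.71 (Ngfr). Erbb3 was also 0.026 with a pseudocount of 10, 0.27 with edgeR and 0.28 with DESeq2. Size factors close to 1 kept reads from being recovered in 1 proximal library of each knockout, so edgeR, DESeq2 and TMM on reads were not run for comparisons with knockouts, and TMM on CPM was added after seeing the data (34 for the interaction with GS4T). Genes without a row set to 0 and symbols of several genes kept were also added then (368 and 370 calls). Where a group is left with 1 library, that library is assumed to vary like the others. Depth was alike in the 4 control libraries.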
